A study of Mus musculus with 4 samples.

Results

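The proteasome genes of B cells from the cervical lymph nodes were compared between NOD.B10 mice and BL/10 mice, from bulk RNA sequencing of B cells purified by sorting, with 2 libraries of each strain. They were taken as every gene symbol that starts with Psma, Psmb, Psmc, Psmd, Psme, Psmf or Psmg followed by a digit, which gave 49 of the 23418 symbols in the deposited count table. NOD.B10 mice carry the H2 haplotype of the C57BL/10 strain on the NOD background and serve as a model of Sjögren's disease. BL/10 mice were the control strain, and no treatment was named for either. The sources used here do not state the age or sex of the mice, nor whether the replicates are different animals or pools. The p-values therefore measure only the spread between these libraries, which may be technical.

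The proteasome is the large protease of the cytosol and nucleus that degrades proteins tagged with ubiquitin and supplies most of the peptides shown on class I molecules. Its 20S core is a barrel of alpha and beta rings, of which the beta subunits encoded by Psmb6 (beta1), Psmb7 (beta2) and Psmb5 (beta5) carry the active sites. Interferon-gamma raises the inducible counterparts Psmb9, Psmb10 and Psmb8, which replace them in the immunoproteasome, and lymphocytes hold much of it without stimulation. The 19S cap recognises and unfolds tagged proteins, while the 11S caps and PA200 open the core in other ways. The symbol pattern also takes in assembly chaperones and 1 gene that encodes no subunit, Psmc3ip, whose product acts with recombinases in homologous recombination.

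The core promoters of 4 genes on which the results turn are shown with the motif that a search of both strands found in each. They run from 250 bases before to 30 bases after the transcription start, 5′ to 3′ on the strand of the gene, with sequence and coordinates from RefSeq, build GRCm38.p6. Capitals mark the match to TGACNNNGC, the core of the element bound by the proteasome regulator NRF1, in Psmb5, Psmb6 and Psme4, and to TTCNNNGAA, the core of the gamma-activated site of interferon-gamma response genes, in Psmb8.

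Psmb5 (chr14:54617966-54618245, minus strand): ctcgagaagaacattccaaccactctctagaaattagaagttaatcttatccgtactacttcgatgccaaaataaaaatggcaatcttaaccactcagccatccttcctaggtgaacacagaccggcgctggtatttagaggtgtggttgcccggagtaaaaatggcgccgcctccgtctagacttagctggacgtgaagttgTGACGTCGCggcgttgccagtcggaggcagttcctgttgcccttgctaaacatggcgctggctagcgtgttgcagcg

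Psmb6 (chr11:70525107-70525386, plus strand): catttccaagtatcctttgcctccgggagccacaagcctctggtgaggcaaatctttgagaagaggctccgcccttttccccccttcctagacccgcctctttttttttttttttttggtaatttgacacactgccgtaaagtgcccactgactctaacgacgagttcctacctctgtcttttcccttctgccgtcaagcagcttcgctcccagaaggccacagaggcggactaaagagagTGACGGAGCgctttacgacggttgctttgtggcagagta

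Psmb8 (chr17:34197945-34198224, plus strand): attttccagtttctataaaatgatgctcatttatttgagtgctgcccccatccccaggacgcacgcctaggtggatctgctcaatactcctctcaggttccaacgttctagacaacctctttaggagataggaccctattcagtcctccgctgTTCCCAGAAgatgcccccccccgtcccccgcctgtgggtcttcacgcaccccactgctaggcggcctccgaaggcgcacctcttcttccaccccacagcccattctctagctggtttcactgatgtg

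Psme4 (chr11:30771525-30771804, plus strand): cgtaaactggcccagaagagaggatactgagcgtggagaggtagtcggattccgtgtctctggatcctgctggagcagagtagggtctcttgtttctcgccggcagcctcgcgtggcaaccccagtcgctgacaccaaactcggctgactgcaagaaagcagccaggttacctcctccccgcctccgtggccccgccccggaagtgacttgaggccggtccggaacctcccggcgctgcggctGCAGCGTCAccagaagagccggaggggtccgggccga

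Promoter entries were found for 41 of the 49 genes, 44 entries in all, each searched over its whole window up to 50 bases after the start. TGACNNNGC was present in 6 of them (13.6%), those of Psmb5, Psmb6, Psmc6, Psmd12, Psmd9 and Psme4, and in 12.4% of all 32851 promoters in the table. The core of the interferon-stimulated response element, searched as GAAA followed by 2 bases of any kind and a second GAAA, was present in 5 (11.4%, against 3.44% of all promoters), those of Psmb3, Psmd4, Psmd9, Psme1 and Psmg4. TTCNNNGAA was present in 3 (6.82%, against 8.30% of all promoters), those of Psmb8, Psmd2 and Psmg1. None of these 3 motifs was found in the windows of Psmb9 and Psmb10, and a match is a description of letters, not of binding.

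Total counts were 19328803 and 25375678 reads in the NOD.B10 libraries and 29372751 and 26150794 reads in the BL/10 libraries, of which the 49 genes held between 0.255% and 0.291%. The 9 B cell markers summed to 9954 and 10670 CPM in NOD.B10 and to 9041 and 9236 CPM in BL/10, CPM being the read count scaled to a library of 1000000 reads, and 1 of them, Fcer2a, was called higher. All 12 T cell markers were lower in NOD.B10, with summed levels of 48.7 and 51.4 CPM in NOD.B10 against 445 and 519.5 CPM in BL/10, and none was at 0 in both NOD.B10 libraries. Most of the NOD.B10 sums was Lck, at 38.3 and 45.9 CPM in NOD.B10 against 64.5 and 75.6 CPM in BL/10 (log2 fold change −0.73). The log2 fold changes of the other T cell markers ran from −7.80 to −4.15. All 5 natural killer markers tested were lower as well (summed 2.70 and 3.84 CPM in NOD.B10 against 12.8 and 20.9 CPM in BL/10), with Klrk1, Klrd1, Gzma and Gzmb at 0 reads in NOD.B10. Also lower were 4 of 8 proliferation markers (summed 199.97 and 184 CPM in NOD.B10 against 283 and 332 CPM in BL/10). So were 2 of 8 plasma cell markers, Prdm1 and Tnfrsf17 (list summed 699.8 and 624 CPM in NOD.B10 against 1319 and 682 CPM in BL/10). Most of the NOD.B10 plasma cell sums was Irf4, Mzb1 and Xbp1, none called, with log2 fold changes of 0.09, 0.04 and 0.04. The plasma cell sums include Jchain, not called, at 14.0 and 7.21 CPM in NOD.B10 against 608 and 119 CPM in BL/10. Sdc1, also not called, had 5.34 and 5.29 CPM in NOD.B10 against 19.8 and 7.95 CPM in BL/10. Called lower too were 2 of 9 macrophage markers (43.9 and 25.7 CPM in NOD.B10 against 48.1 and 49.0 CPM in BL/10) and 2 of 6 dendritic cell markers tested (179 and 151 CPM in NOD.B10 against 223 and 201 CPM in BL/10, with Batf3 at 0 in NOD.B10). Most of the dendritic cell sums was Ccr7, not called, at 169 and 142 CPM in NOD.B10 against 213 and 182 CPM in BL/10. The 2 called dendritic cell markers, Itgax and Siglech, had log2 fold changes of −4.16 and −4.55. The part of these other cell types in the results below was not tested. In bulk RNA, fewer cells of a type and less RNA per cell cannot be told apart.

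Few proteasome genes were called between the strains. Of the 49 genes, 47 passed the filter on low counts and 3 were called, that is, had an adjusted p under 0.05 (adjusted over all genes, edgeR quasi-likelihood test, Benjamini-Hochberg adjustment). The catalytic subunit gene Psmb5 was lower in NOD.B10, and Psme4, which encodes PA200, and Psmc3ip were higher. These are 6.38% of the 47, while 15.2% of all 13075 genes tested were called. By direction, 2 of the 47 were higher against 6.55% of all genes, and 1 was lower against 8.63% of all genes. Without Psmc3ip, which encodes no subunit, 46 genes were tested, with 1 called higher and 1 lower. The absolute log2 fold change was under 0.25 for 40 of the 47 genes and for 52.1% of all genes. Its median was 0.10 over the 47 genes and 0.23 over all genes. The median of the signed values was 0.01, against 0.00 over all genes (−0.0032). The 47 genes also had a smaller median standard error (SE) of the log2 fold change, 0.140 against 0.180 over all genes. Both NOD.B10 libraries lay above both BL/10 libraries for 9 of the 47 genes and below them for 3, which is 25.5% of the genes against 55.6% of all genes tested. In the groups described below as without a call, Psmf1 apart, 0 genes had an unadjusted p under 0.05, and DESeq2 and limma-voom called 0 of them as well.

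**Figure D1:**
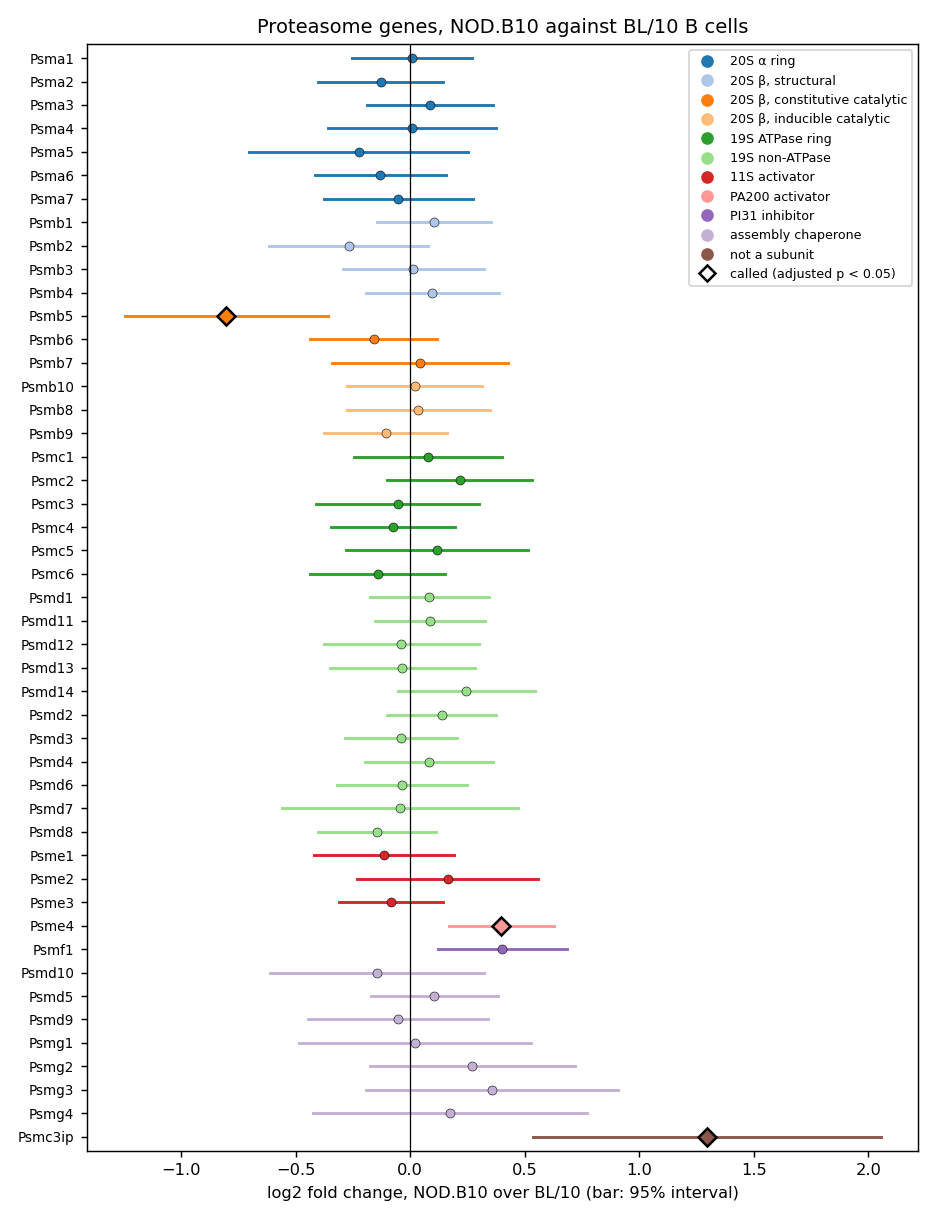
Log2 fold change of NOD.B10 over BL/10 (horizontal axis) for the 47 proteasome genes tested, grouped and coloured by role, with bars for the 95% interval and diamonds for the 3 called genes. Psmb5 stands to the left at −0.80, Psme4 and Psmc3ip to the right at 0.40 and 1.29, and most of the others lie within 0.25 of 0.

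The alpha ring, which forms the gate of the core, showed no called gene. The 7 genes Psma1 to Psma7 had levels between 16.3 and 75.4 CPM in NOD.B10 and between 15.1 and 83.9 CPM in BL/10, and log2 fold changes from −0.22 to 0.09. Psma5, with the largest of these differences, had 17.2 and 16.3 CPM in NOD.B10 libraries against 15.1 and 24.0 CPM in BL/10 libraries (log2 fold change −0.22, 95% interval −0.70 to 0.25, adjusted p = 0.585). The NOD.B10 values fell between the BL/10 ones. Psma8, the alpha subunit of the testis, had 6 and 2 reads in NOD.B10 and 0 and 2 reads in BL/10 and was not tested.

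The structural beta subunits, which carry no active site, likewise held no called gene. Psmb1, Psmb3 and Psmb4 had log2 fold changes of 0.10, 0.01 and 0.10. Psmb2 had 40.5 and 37.1 CPM in NOD.B10 libraries against 39.4 and 54.2 CPM in BL/10 libraries (log2 fold change −0.27, SE 0.160, adjusted p = 0.326). The groups overlapped, since only the second BL/10 library was high, and Psmb2 was called lower when the first BL/10 library was left out (adjusted p = 0.0307). Psmb11, the catalytic subunit of thymic cortical epithelium, had 0 reads in both NOD.B10 libraries, which allows up to 0.0671 CPM at 3 reads over the strain, and 3 and 5 reads in BL/10.

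Among the constitutive catalytic subunits, 1 of 3 was called. Psmb5, which carries the chymotrypsin-like activity and is the main target of the drug bortezomib, had 221 and 344 reads in NOD.B10 and 542 and 652 reads in BL/10. Scaled to library size these were 11.5 and 13.5 CPM in NOD.B10 libraries against 18.3 and 25.3 CPM in BL/10 libraries. Psmb5 has pseudogenes, and the handling of multi-mapping reads is not given in the sources used here, so its counts are uncertain. Both NOD.B10 libraries lay below both BL/10 libraries, and the fold change was 1.74 (log2 fold change −0.80, 95% interval −1.24 to −0.36, SE 0.205, adjusted p = 0.0170). Leaving out the second BL/10 library, the higher of its pair, gave a log2 fold change of −0.56 and an adjusted p of 0.110, so that Psmb5 was no longer called.

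Psmb6, of the caspase-like site, had 51.9 and 57.2 CPM in NOD.B10 libraries against 56.6 and 65.2 CPM in BL/10 libraries (log2 fold change −0.16, 95% interval −0.44 to 0.12, adjusted p = 0.490). Psmb7, of the trypsin-like site, had 51.6 and 41.6 CPM in NOD.B10 libraries against 37.8 and 52.5 CPM in BL/10 libraries (log2 fold change 0.04, 95% interval −0.34 to 0.43, adjusted p = 0.913). For both genes the strains overlapped. Within each library, the level of Psmb5 relative to the sum of the other 13 standard core genes gave a log2 ratio of −5.93 and −5.80 in NOD.B10 and of −5.20 and −5.00 in BL/10. The difference was −0.77, against −0.80 for the fold change of Psmb5 itself. Of the 17 other genes of the symbol pattern between 700 and 1100 bases long, the length range that holds Psmb5, only Psmc3ip was called. Whether gene length has a part in the Psmb5 difference was not tested.

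The 3 inducible subunits were not called. Psmb8 had 163 and 166 CPM in NOD.B10 libraries against 135 and 185 CPM in BL/10 libraries (log2 fold change 0.04, 95% interval −0.27 to 0.35, adjusted p = 0.914). Psmb9 had 69.0 and 65.3 CPM in NOD.B10 libraries against 66.7 and 77.8 CPM in BL/10 libraries (log2 fold change −0.11, 95% interval −0.38 to 0.16, adjusted p = 0.656). Psmb10 had 66.0 and 67.8 CPM in NOD.B10 libraries against 57.7 and 74.3 CPM in BL/10 libraries (log2 fold change 0.02, 95% interval −0.27 to 0.31, adjusted p = 0.950). For each gene the strains overlapped and the BL/10 libraries lay further apart than the NOD.B10 ones. The intervals leave room for changes of up to 1.27-fold upward for Psmb8 and of down to 0.771-fold for Psmb9.

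**Figure D2:**
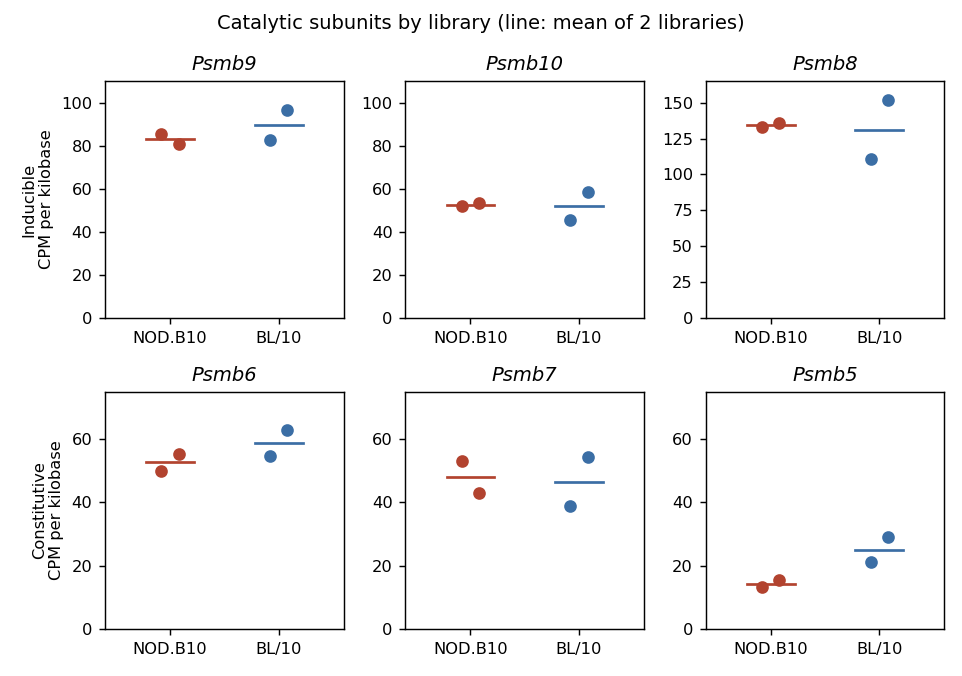
Levels in CPM per kilobase of gene length (vertical axes, each from 0) of the inducible subunits in the top row and of their constitutive counterparts in the bottom row, with a point per library and a line at the mean of 2 libraries. The strains overlap in 5 panels, and for Psmb5 the NOD.B10 libraries, at 13.2 and 15.5, lie below the BL/10 libraries, at 21.0 and 29.02.

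Psmb8 and Psmb9 lie in the class II region of the H2 complex on chromosome 17 (34198195 to 34201454 and 34182030 to 34187330), inside the stretch that NOD.B10 mice take from the C57BL/10 haplotype. The peptide transporter genes Tap1 and Tap2 lie beside them, and 225 bases separate Psmb9 from Tap1. Tap1 had 281 and 285 CPM in NOD.B10 libraries against 403 and 325 CPM in BL/10 libraries (log2 fold change −0.36, adjusted p = 0.0519), and Tap2 had a log2 fold change of 0.04. Psmb10 lies on chromosome 8 and Psmb5 on chromosome 14.

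Compared per kilobase of gene length, Psmb8 was the most abundant of the 49 genes in 3 libraries and second to Psme1 in the first BL/10 library. It stood at 133 and 136 CPM per kilobase in NOD.B10 libraries against 111 and 152 in BL/10 libraries. Psmb9 had rank 4 in every library, between 81.0 and 96.6 CPM per kilobase over the 4 libraries. Psmb5 ranked 41 and 38 in NOD.B10 libraries and 37 and 35 in BL/10 libraries, and was the lowest of the 7 standard beta subunits in each library.

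The comparison of each inducible subunit with its constitutive counterpart gave a difference between strains for the beta5 pair. The log2 ratio of Psmb8 to Psmb5 reads was 3.83 and 3.62 in NOD.B10 libraries against 2.89 and 2.87 in BL/10 libraries. Both NOD.B10 ratios were higher, and the difference of 0.85 corresponds to 1.80-fold (exact permutation test over the 4 libraries, two-sided, p = 0.333, adjusted over the 3 pairs p = 1). A p of 0.333 is the smallest that 2 libraries against 2 allow.

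For the beta1 pair, the log2 ratio of Psmb9 to Psmb6 was 0.41 and 0.19 in NOD.B10 libraries against 0.24 and 0.25 in BL/10 libraries, a difference of 0.06 (exact p = 1). For the beta2 pair, the log2 ratio of Psmb10 to Psmb7 was 0.36 and 0.70 in NOD.B10 libraries against 0.61 and 0.50 in BL/10 libraries, a difference of −0.03 (exact p = 1). In both pairs the BL/10 values lay inside the range of the NOD.B10 ones. Adjusted for gene length, Psmb8 made up 91.0% and 89.8% of the beta5 pair in NOD.B10 libraries and 84.0% and 83.9% in BL/10 libraries. The inducible gene made up between 59.5% and 63.1% of the beta1 pair and between 49.4% and 55.4% of the beta2 pair over all 4 libraries. Summed over the 3 genes of each kind, with no test, the log2 ratio was 1.37 and 1.41 in NOD.B10 libraries and 1.20 and 1.24 in BL/10 libraries. These are ratios of RNA, and Psmb8 itself had a log2 fold change of 0.04, so that the shift of the beta5 pair goes with the lower Psmb5 level.

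**Figure D3:**
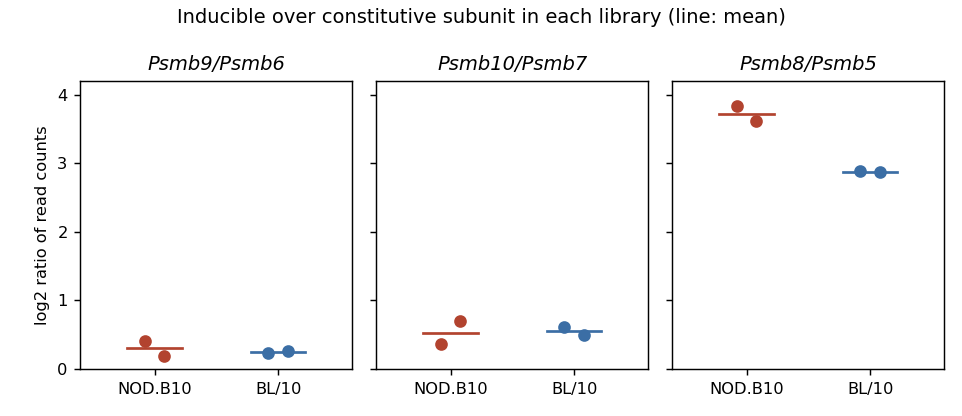
Log2 ratio of read counts of each inducible subunit over its constitutive counterpart (vertical axis), with a point per library and a line at the mean of the 2 libraries of a strain. The Psmb8/Psmb5 ratio is 3.83 and 3.62 in NOD.B10 and 2.89 and 2.87 in BL/10, while the other 2 pairs lie between 0.19 and 0.70 in both strains.

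The 19S cap genes of the symbol pattern held no called gene among 17. The 6 ATPase genes that form the unfolding ring had levels from 40.5 to 61.3 CPM in NOD.B10 and from 32.1 to 71.0 CPM in BL/10. Psmc2 had 56.8 and 61.3 CPM in NOD.B10 libraries against 43.7 and 58.0 CPM in BL/10 libraries (log2 fold change 0.22, SE 0.146, adjusted p = 0.396). The strains overlapped, and Psmc2 was called higher when the second BL/10 library was left out (adjusted p = 0.0448).

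The 11 other cap genes, which include the ubiquitin receptor gene Psmd4, had log2 fold changes from −0.14 to 0.25. Psmd14, which encodes the enzyme that removes ubiquitin chains from substrates, had 64.5 and 59.0 CPM in NOD.B10 libraries against 46.2 and 58.0 CPM in BL/10 libraries (log2 fold change 0.25, SE 0.137, adjusted p = 0.288). Its NOD.B10 libraries both lay above the BL/10 ones, by a narrow margin over the second. Psmd2 and Psmd11 had NOD.B10 libraries above BL/10 ones as well and Psmd8 below, with log2 fold changes of 0.14, 0.09 and −0.14. Summed, these 17 genes stood at 1029 and 1105 CPM in NOD.B10 libraries and at 966 and 1118 CPM in BL/10 libraries.

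Of the 11S activator genes, Psme1 and Psme2 encode the interferon-inducible ring PA28 alpha-beta and Psme3 the nuclear ring PA28 gamma. Psme1 had 104 and 126 CPM in NOD.B10 libraries against 110 and 139 CPM in BL/10 libraries (log2 fold change −0.12, adjusted p = 0.674). Psme2 had 39.8 and 47.7 CPM in NOD.B10 libraries against 32.0 and 46.2 CPM in BL/10 libraries (log2 fold change 0.16, adjusted p = 0.635). For both genes the NOD.B10 libraries overlapped the BL/10 ones. Psme3 had 163 and 166 CPM in NOD.B10 libraries against 175 and 174 CPM in BL/10 libraries, below in both but not called (log2 fold change −0.08, adjusted p = 0.681).

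Psme4 rose in NOD.B10. It encodes PA200, an activator that is known for its part in degrading acetylated histones. It had 184 and 188 CPM in NOD.B10 libraries against 139.7 and 142 CPM in BL/10 libraries, 1.32-fold (log2 fold change 0.40, 95% interval 0.17 to 0.63, SE 0.106, adjusted p = 0.0214). Replicates were close and the strains did not overlap. The log2 fold change was 0.40 and 0.38 when the first or the second NOD.B10 library was left out, and in both cases the call was lost (adjusted p = 0.0979 and 0.119). Erlec1, whose annotated bounds overlap those of Psme4, had a log2 fold change of −0.14 (adjusted p = 0.579).

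Psmf1, which encodes the proteasome inhibitor protein PI31, missed the threshold narrowly. It had 66.4 and 57.0 CPM in NOD.B10 libraries against 48.6 and 44.7 CPM in BL/10 libraries (log2 fold change 0.40, SE 0.130, adjusted p = 0.0549). The strains did not overlap. It was called higher with no filter on low counts (adjusted p = 0.0265), and also when either the first BL/10 or the second NOD.B10 library was omitted (adjusted p = 0.0388 and 0.0371). DESeq2 and limma-voom did not call it.

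The 7 assembly chaperone genes, which help to build the core and the cap and are absent from the finished particle, had no called gene. Their levels ran from 7.31 to 47.4 CPM in NOD.B10 and from 5.47 to 45.1 CPM in BL/10. Psmg3, a chaperone of the core, had 7.98 and 7.64 CPM in NOD.B10 libraries against 5.95 and 6.24 CPM in BL/10 libraries (log2 fold change 0.36, SE 0.255, adjusted p = 0.427). Its groups did not overlap, which was also so for Psmg2 and Psmd5, both above in NOD.B10. At the depth of Psmg3, between 154 and 195 reads in NOD.B10 and 176 and 161 reads in BL/10, the 95% interval ran from −0.19 to 0.91.

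Psmc3ip, the gene matched by name alone, rose 2.45-fold in NOD.B10. It had 6.17 and 6.42 CPM in NOD.B10 libraries against 1.89 and 3.26 CPM in BL/10 libraries (log2 fold change 1.29, 95% interval 0.54 to 2.05, SE 0.351, adjusted p = 0.0235). Read counts were 119 and 164 in NOD.B10 and 56 and 84 in BL/10. The call was lost without the first BL/10 library (log2 fold change 0.95, adjusted p = 0.162). Mlx, which overlaps it in the annotation, had a log2 fold change of 0.14 (adjusted p = 0.568).

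**Figure D4:**
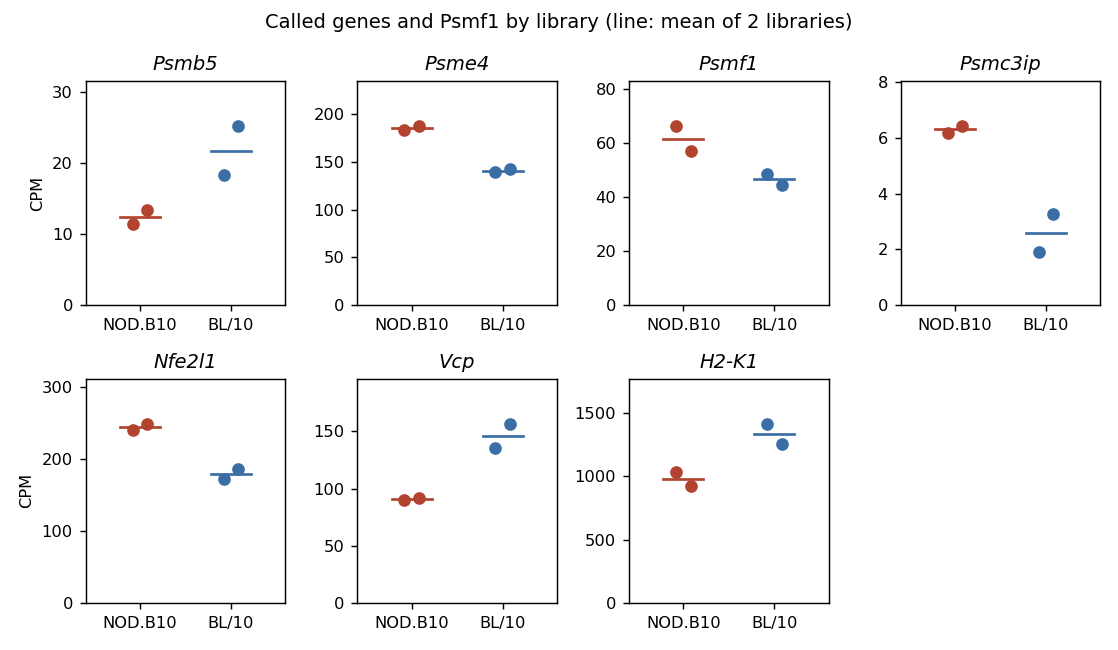
Levels in CPM (vertical axes, each from 0), with a point per library and a line at the mean. The top row holds the 3 called genes of the symbol pattern and Psmf1, and the bottom row 3 called genes of related lists. Psmc3ip, matched by name alone, encodes no subunit. In all 7 panels the 2 NOD.B10 libraries do not overlap the 2 BL/10 libraries, as for 55.6% of all genes tested. The genes were picked by the strain test on these same libraries.

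Genes that control or serve the proteasome were read from 5 lists, with 59 of 61 entries tested, 1 called higher and 3 called lower, where 15.2% of all genes tested were called (6.55% higher and 8.63% lower). The median log2 fold change of the 59 was −0.01. In the list on the control of proteasome genes by NRF1, 1 of 12 genes was higher and 1 lower. In that list 5 genes, Bach1, Mafk, Nfe2l1, Ngly1 and Vcp, had an unadjusted p under 0.05. How many of all genes tested had such a p was not counted, and the shares above are for adjusted p. Nfe2l1, which encodes NRF1, the factor that raises proteasome genes when the protease is inhibited, had 241 and 250 CPM in NOD.B10 libraries against 172 and 186 CPM in BL/10 libraries (log2 fold change 0.45, SE 0.106, adjusted p = 0.0103). Both NOD.B10 libraries were higher, and omitting the second of them ended the call (adjusted p = 0.0624). Vcp, which encodes the p97 segregase that extracts ubiquitin-tagged proteins and frees NRF1 from the endoplasmic reticulum, had 89.9 and 91.8 CPM in NOD.B10 libraries against 135 and 157 CPM in BL/10 libraries. It was lower in both (log2 fold change −0.69, 95% interval −0.94 to −0.43, adjusted p = 0.0014).

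Of 13 proteasome-associated and assembly genes, among them Pomp, the maturation factor of the core, 0 were called by edgeR, DESeq2 or limma-voom and 0 had an unadjusted p under 0.05, with log2 fold changes from −0.24 to 0.33.

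Of 10 genes on the interferon-gamma control of the inducible subunits, 0 were called by edgeR, DESeq2 or limma-voom and 1, Irf8, had an unadjusted p under 0.05. Log2 fold changes ran from −0.33 to 0.27 with a median of 0.06. Irf1, a transcription factor of that response, had a log2 fold change of 0.23 (adjusted p = 0.262), and Nlrc5, the regulator of class I genes, of −0.03. Of 11 genes of class I peptide handling, 1 was lower, while DESeq2 called 3. An unadjusted p under 0.05 was found for 4 of them, B2m, H2-D1, H2-K1 and Tap1, all lower in NOD.B10. The share of all genes tested with an unadjusted p under 0.05 was not counted, so such counts have no background here. H2-K1, a class I heavy chain, had 1037 and 925 CPM in NOD.B10 libraries against 1418 and 1259 CPM in BL/10 libraries (log2 fold change −0.45, SE 0.104, adjusted p = 0.0103). Both NOD.B10 libraries were lower, and the call was lost without the second of them (adjusted p = 0.102).

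Proteasome genes moved together between the 2 BL/10 libraries. Of the 47 genes, 43 had a higher CPM in the second BL/10 library than in the first, with a median log2 difference of 0.23, while the median over 12711 genes with reads in every library was −0.01 (−0.0055). Between the NOD.B10 libraries 39 of the 47 were higher in the second, with a median of 0.10 (0.0021 over the 12711 genes). Of the 12711 genes, 6408 were higher in the second NOD.B10 library and 6250 in the second BL/10 library. The BL/10 difference was larger for shorter genes. It had a median of 0.33 over the 30 genes under 1500 bases, all of which were higher in the second library, and of 0.10 over the 17 longer ones. The same split was not made over all genes. Across the 47 genes, which share the 4 libraries, Spearman's rho between length and this difference was −0.42, against −0.20 across the 12711 genes. The log2 fold change between strains had a median of 0.02 for the shorter genes and of −0.03 for the longer ones, while its Spearman's rho with length was 0.15 across the 47 genes and 0.08 across the 12711. The cause of the shift shared by the proteasome genes between the BL/10 libraries was not tested.

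**Figure D5:**
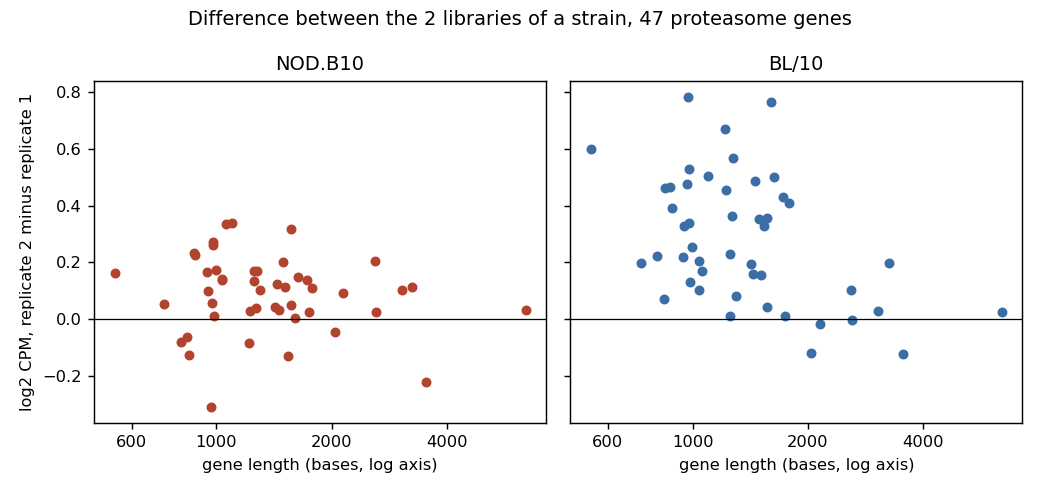
Log2 CPM of replicate 2 minus replicate 1 (vertical axis) against gene length in bases on a log axis, a point for each of the 47 proteasome genes, for NOD.B10 on the left and BL/10 on the right. In BL/10 43 points lie above 0, with the 30 genes under 1500 bases all above it, and in NOD.B10 39 points lie above 0 at a median of 0.10.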

How the data were processed

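The values are raw read counts of 4 libraries as deposited, 1 row per gene symbol with a gene length. The submitters' processing notes name HISAT2 (2.1.0), SAMtools (1.3), Subread (1.6.5), featureCounts and the build mm10. Whether reads of both strains map equally well to that build was not tested. How multi-mapping reads and strand were handled, and which annotation served, is not given in the sources used here, so genes with pseudogenes (Psma5, Psmb5, Psmb6, Psmb7) or overlapping genes (13 of the 49 by RefSeq) carry uncertain counts.

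Counts were fitted over all genes with edgeR 4.0.16 in R 4.3.3 (filterByExpr with minimum count 10 and minimum total 15, TMM factors, robust quasi-likelihood test, two-sided). P-values were adjusted by Benjamini-Hochberg over 13075 genes. CPM uses TMM-scaled library sizes. SE was derived from the F statistic and the 95% interval from SE and the moderated degrees of freedom. Intervals cover the spread between 2 libraries per strain. Alternatives used DESeq2 1.42.0, limma 3.58.1, other factors and filters, a replicate block and leaving out each library. The procedure was also tested on simulated counts that gave every gene the same dispersion, a simpler setting than these libraries. That test does not give error rates for these data.

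Members and lists were chosen with earlier results of these data known. Genes named were the 6 catalytic subunits, Psme1, Psme2, every called or untested member, the largest difference in each group without a call, and called genes of the related lists, of which 1 is not reported here. Others were named after their values were seen. Of 61 related symbols, Paaf1 was not analysed here and Ddi1 had 0 reads.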

Additional observations from a re-analysis of the deposited data

How the results depend on the processing

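Psmb5, Psme4 and Psmc3ip were called by edgeR with TMM factors and also with RLE or upper-quartile factors, the stricter filter (50 reads in 2 libraries), DESeq2, limma-voom, non-robust dispersion and the replicate block, and with no filter Psmf1 joined them. With 1 library left out, between 1 and 3 genes were called higher and between 0 and 2 lower: Psmb5 was lost without the second BL/10 library, Psme4 without either NOD.B10 library and Psmc3ip without the first BL/10 library. The 4 called related genes became 10 with no filter and 3 to 10 with 1 library left out. The Psmb9/Psmb6 difference ran from −0.055 to 0.17 and the Psmb10/Psmb7 difference from −0.20 to 0.15 with 1 library left out, so their signs were not fixed, while Psmb8/Psmb5 ran from 0.74 to 0.95. Of the 44 genes not called, 25 changed the sign of their fold change with 1 library left out and 3 under other settings, by at most 0.023 from 0 there. Why single libraries move these calls was not tested. Replicate numbers are not stated to pair libraries and the correlation of same-numbered deviations was −0.017 over all genes, although most proteasome genes were higher in replicate 2 of both strains (39 of 47 in NOD.B10 and 43 of 47 in BL/10). The replicate block called 1802 genes in place of 1986. Depth limits the low genes Psma8 and Psmb11, which were not tested, and Psmc3ip, with 56 to 164 reads a library.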

Other observations

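Some ratios within the activator genes were looked at after their values were seen and carry no test. The log2 ratio of Psme1 to Psme2 reads, the genes of the PA28 alpha-beta ring, was 1.391 and 1.4001 in NOD.B10 libraries against 1.78 and 1.59 in BL/10 libraries, lower in both NOD.B10 libraries by 0.29 on average although neither gene was called. The log2 ratio of Psme4 to the sum of Psme1, Psme2 and Psme3 was −0.74 and −0.85 in NOD.B10 libraries against −1.18 and −1.34 in BL/10 libraries. Among the inducible subunits, the log2 ratio of Psmb8 to Psmb10 was 1.302 and 1.291 in NOD.B10 libraries against 1.23 and 1.32 in BL/10 libraries, and the NOD.B10 values lay between the BL/10 ones.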
